A study of Mus musculus with 21 samples.

Results

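The 9 genes Hoxa3, Hoxa5, Hoxa7, Hoxa9, Hoxa10, Hoxb4, Meis1, Mecom and Hlf were examined in RNA sequencing of mouse hematopoietic stem cells (HSCs). They were taken by symbol from a table of 21000 genes, as transcription factors known for a part in HSC maintenance, and all 9 were found in it. The table holds 21 libraries in 7 groups of 3, all from wild-type C57BL/6 bone marrow, with HSCs that the study defined as CD150+CD48-Flt3-Lin-Sca-1+c-Kit+ cells. Mice of 10 weeks received PBS or 5-fluorouracil (5-FU), a drug that kills dividing blood cells, after which HSCs enter the cell cycle, by intraperitoneal injection of 150 mg/kg. They received it once, or 3 times at intervals of 21 days, and 3000–3500 HSCs were isolated 5 days after the last administration (day 6) or, after 5-FU alone, 20 days after it (day 21). The groups are therefore PBS once, 5-FU once at day 6, 5-FU once at day 21, PBS 3 times, 5-FU 3 times at day 6, 5-FU 3 times at day 21, and old, which are fresh HSCs from mice of 2 years that received neither agent and were collected separately.

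The design limits what these groups can be set against. No PBS library of day 21 was analysed here, so both day 21 groups were compared with the PBS libraries of day 6. Mice given 3 administrations were older at isolation than mice given 1. For 5-FU-treated mice at day 6 the gate also took in cells with dim c-Kit and no Mac-1 antibody was used, so that gate and treatment cannot be told apart there. In sorted bulk samples, fewer cells of a type and less RNA per cell cannot be told apart either.

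Hox genes encode homeodomain transcription factors that lie in 4 clusters in the mouse, and in blood cells genes of the HoxA cluster are most active in stem and early progenitor cells and are switched off on differentiation. Their proteins bind DNA together with TALE homeodomain partners, which are the Meis and Pbx families, and Meis1 with Hoxa9 is the classic pair of HSC self-renewal and of leukemia. Mecom encodes EVI1 and MDS1-EVI1, zinc finger proteins of the PRDM family that HSCs need for long-term function. Hlf encodes a PAR bZIP protein that is largely restricted to HSCs among blood cells and helps to keep them quiescent.

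Of the 4 members that passed a test at day 6 after 5-FU, Meis1, Mecom and Hlf lie outside the Hox clusters. On GRCm38, the assembly that mm10 represents, Meis1 lies at chr11:18879817-19018985 on the minus strand, Hlf at chr11:90336536-90390895 on the minus strand and Mecom at chr3:29951296-30548008 on the minus strand. Their RefSeq promoter windows on GRCm38.p6, 250 bases before to 50 after a start site, are printed because the data concern the level of these transcripts. Mecom has an upstream start, from which the longer transcript runs, and a downstream start. The windows are chr11:19018920-19019219 for Meis1, chr11:90390868-90391167 for Hlf, chr3:30509710-30510009 for the upstream start of Mecom and chr3:30013155-30013454 for its downstream start, all on the minus strand and written 5′ to 3′ in the direction of the gene. Capitals mark a match to one of the motifs searched.
Meis1: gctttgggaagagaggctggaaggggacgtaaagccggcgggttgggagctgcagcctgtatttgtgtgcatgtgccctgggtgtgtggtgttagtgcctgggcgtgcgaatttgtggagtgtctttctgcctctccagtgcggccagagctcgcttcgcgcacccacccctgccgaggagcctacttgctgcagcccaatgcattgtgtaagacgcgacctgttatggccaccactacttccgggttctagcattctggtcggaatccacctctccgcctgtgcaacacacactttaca
Hlf: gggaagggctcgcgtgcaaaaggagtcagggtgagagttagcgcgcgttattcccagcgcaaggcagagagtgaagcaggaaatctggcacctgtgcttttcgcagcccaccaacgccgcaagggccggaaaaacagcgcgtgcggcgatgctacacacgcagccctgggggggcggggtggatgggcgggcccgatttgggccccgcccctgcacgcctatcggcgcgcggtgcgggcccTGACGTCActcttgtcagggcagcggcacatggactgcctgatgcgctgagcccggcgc
Mecom upstream: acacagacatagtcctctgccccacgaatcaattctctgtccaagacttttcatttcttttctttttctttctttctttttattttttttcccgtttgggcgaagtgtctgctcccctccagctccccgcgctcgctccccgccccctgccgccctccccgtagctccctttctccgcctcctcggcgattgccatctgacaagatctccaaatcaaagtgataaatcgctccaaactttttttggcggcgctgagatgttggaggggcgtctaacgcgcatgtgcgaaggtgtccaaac
Mecom downstream: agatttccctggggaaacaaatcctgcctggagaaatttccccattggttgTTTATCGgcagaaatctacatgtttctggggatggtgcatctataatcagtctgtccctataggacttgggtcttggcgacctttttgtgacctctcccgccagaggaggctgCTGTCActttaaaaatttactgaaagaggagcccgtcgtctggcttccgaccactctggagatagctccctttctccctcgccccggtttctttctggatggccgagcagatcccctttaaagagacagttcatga

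The motifs were searched on both strands in the 11 windows of the 9 genes. The Hlf window holds the cyclic AMP response element TGACGTCA, 9 bases before the start, which 1.79% of 32851 mouse promoter windows of the same length hold. The downstream window of Mecom holds the MEIS motif TGACAG on its minus strand (printed as CTGTCA), 86 bases before the start, and the HOX motif TTTATNG, 199 bases before it. These are held by 19.2% and 10.9% of all windows. Hoxa3 was the other gene with a match, also to TGACAG, 13 bases before its start. The PBX-HOX motif TGATTNAT (3.22% of all windows), the GATA motif AGATAA (11.2%), the PAR bZIP motif TTANGTAA (2.32%) and the AP-1 motif TGANTCA (7.81%) had no match in the 11 windows. A match is a run of letters and not a known site, and binding was not measured in these samples.

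The libraries held 22184885 to 38649033 counts (median 26962256), and a signal of 3 counts corresponded to 0.0845 to 0.129 CPM. CPM here are counts divided by the library total times its TMM factor from edgeR, on the usual CPM scale. Every member was above this floor in all 21 libraries and passed the filter on low counts in every comparison, with between 34 counts for Hoxb4 and 22816 counts for Mecom. Marker lists were used to describe the sorted cells. Among the HSC markers, Kit, Ly6a and Slamf1 encode antigens of the gate (c-Kit, Sca-1 and CD150). In PBS once, Kit had a mean of 1081 CPM and the sum of HSC markers a mean of 1689. That sum is therefore no independent check of HSC identity. The summed level of 7 HSC markers (Procr, Slamf1, Kit, Ly6a, Tek, Fgd5 and Ctnnal1) was 1361 to 2165 CPM in the 21 libraries, that of 5 lymphoid markers at most 2.15 CPM and that of 4 macrophage markers at most 8.27 CPM, while 6 mature myeloid markers summed to 38.7 to 144 CPM. The sums were 227 to 468 CPM for 6 markers of progenitors, 105 to 262 for 5 of megakaryocytes, 13.6 to 71.2 for 5 of erythroid cells and 2.83 to 21.7 for 4 of endothelial and stromal cells. Cd3e, the defining T cell gene, had at most 1 count in a library. The column names of 6 libraries, PBS once and 5-FU once at day 6, carry an unexplained suffix. Comparisons of 5-FU with PBS at day 6 lie within libraries with the suffix or within libraries without it. Those of PBS once or 5-FU once at day 6 with any other group cross it.

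Among the 9 genes, Meis1 and Mecom were the most abundant transcripts per length, followed by Hoxa9, Hlf and Hoxa10. In HSCs of mice given PBS once, Meis1 was at 46.4 ± 3.27 CPM per kb of exons (SD, n = 3) and Mecom at 35.8 ± 3.29. Hoxa9, the HoxA gene best known for HSC self-renewal, was at 17.1 ± 1.52 CPM per kb, Hlf at 14.9 ± 0.258 and Hoxa10 at 14.0 ± 1.03. Hlf and Hoxa10 differed by less than the spread between libraries. Hoxa7 was at 3.89 ± 0.178 CPM per kb, Hoxa5 at 2.53 ± 0.670, Hoxb4 at 0.746 ± 0.125 and Hoxa3 at 0.548 ± 0.0697. The lengths are those of all exons annotated by GENCODE vM21, and the authors counted with another annotation.

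Along the HoxA cluster the level per length peaked at Hoxa9 and Hoxa10 and ended there. Hoxa6, which lies between Hoxa5 and Hoxa7, was at 6.45 ± 1.47 CPM per kb in PBS once. Hoxa2 was at 0.846 ± 0.242 CPM per kb and Hoxa4 at 0.0962 ± 0.0431. Hoxa11 and Hoxa13, which lie next to Hoxa10 at the posterior end, had no count in any of the 21 libraries. In the HoxB cluster, Hoxb4 had a lower level per length than Hoxb2, at 1.70 ± 0.252 CPM per kb, and Hoxb5, at 1.32 ± 0.172. All 9 HoxC genes stayed at a mean of at most 0.237 CPM over the libraries, and 8 of 9 HoxD genes had no count.

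**Figure D1:**
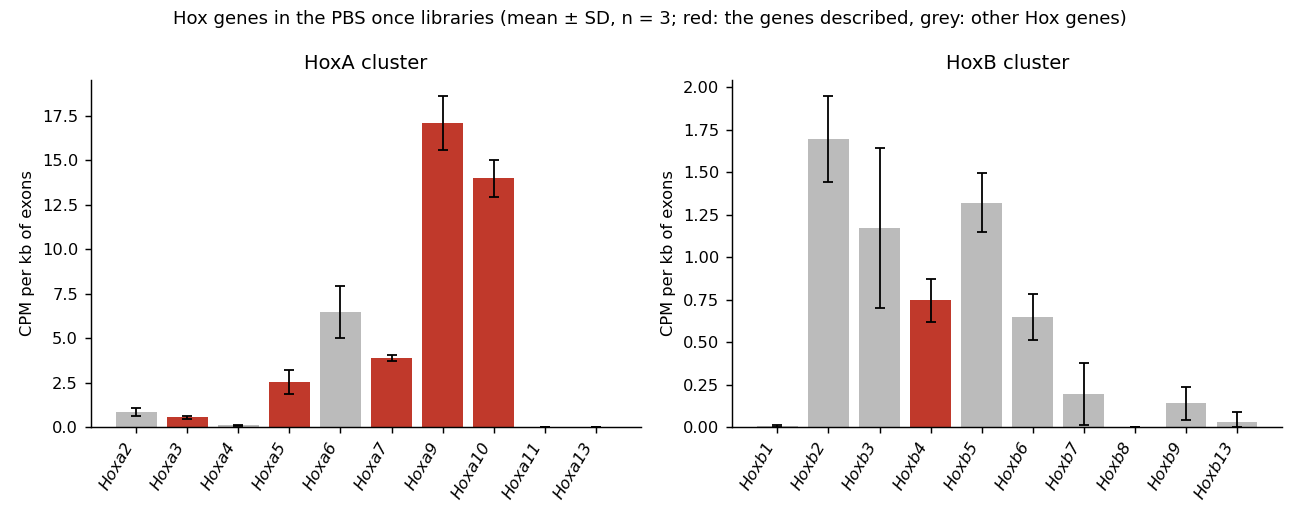
Mean CPM per kb of exons (y axis, bars from 0, error bars SD, n = 3 libraries of mice given PBS once) of genes of the HoxA and HoxB clusters in the order of the clusters (x axis), with the genes described here in red and other Hox genes in grey. Hoxa9 and Hoxa10 stand highest and the genes beyond Hoxa10 are at 0, and the scale of the HoxB panel is smaller.

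The members varied little between the 7 groups. The means of a gene over the groups spanned at most 0.95 on the log2 scale, for Hoxb4, and 0.25 for Hoxa9, which was the steadiest. Hoxa9 was at 79.3 to 106 CPM in the 21 libraries. Ordered by mean, it ran from 84.9 ± 4.57 CPM in old to 101 ± 4.09 in 5-FU once at day 6, and no pair of neighbouring groups in that order was separate. The same held for all 6 neighbouring pairs of Hoxa3, Hoxa5, Hoxa7 and Hoxa10. For Meis1, 2 of 6 neighbouring pairs had no overlapping libraries, with both day 6 groups after 5-FU below PBS once and 5-FU once at day 21 above 5-FU 3 times at day 21. Hlf also had 2 separate pairs, with 5-FU 3 times at day 6 below 5-FU once at day 6 and old below PBS 3 times. Mecom had 1, with PBS 3 times below PBS once, and Hoxb4 had 1, with PBS once below 5-FU once at day 21. Since no member spanned 1 on the log2 scale, no gene was named as most alike in pattern.

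**Figure D2:**
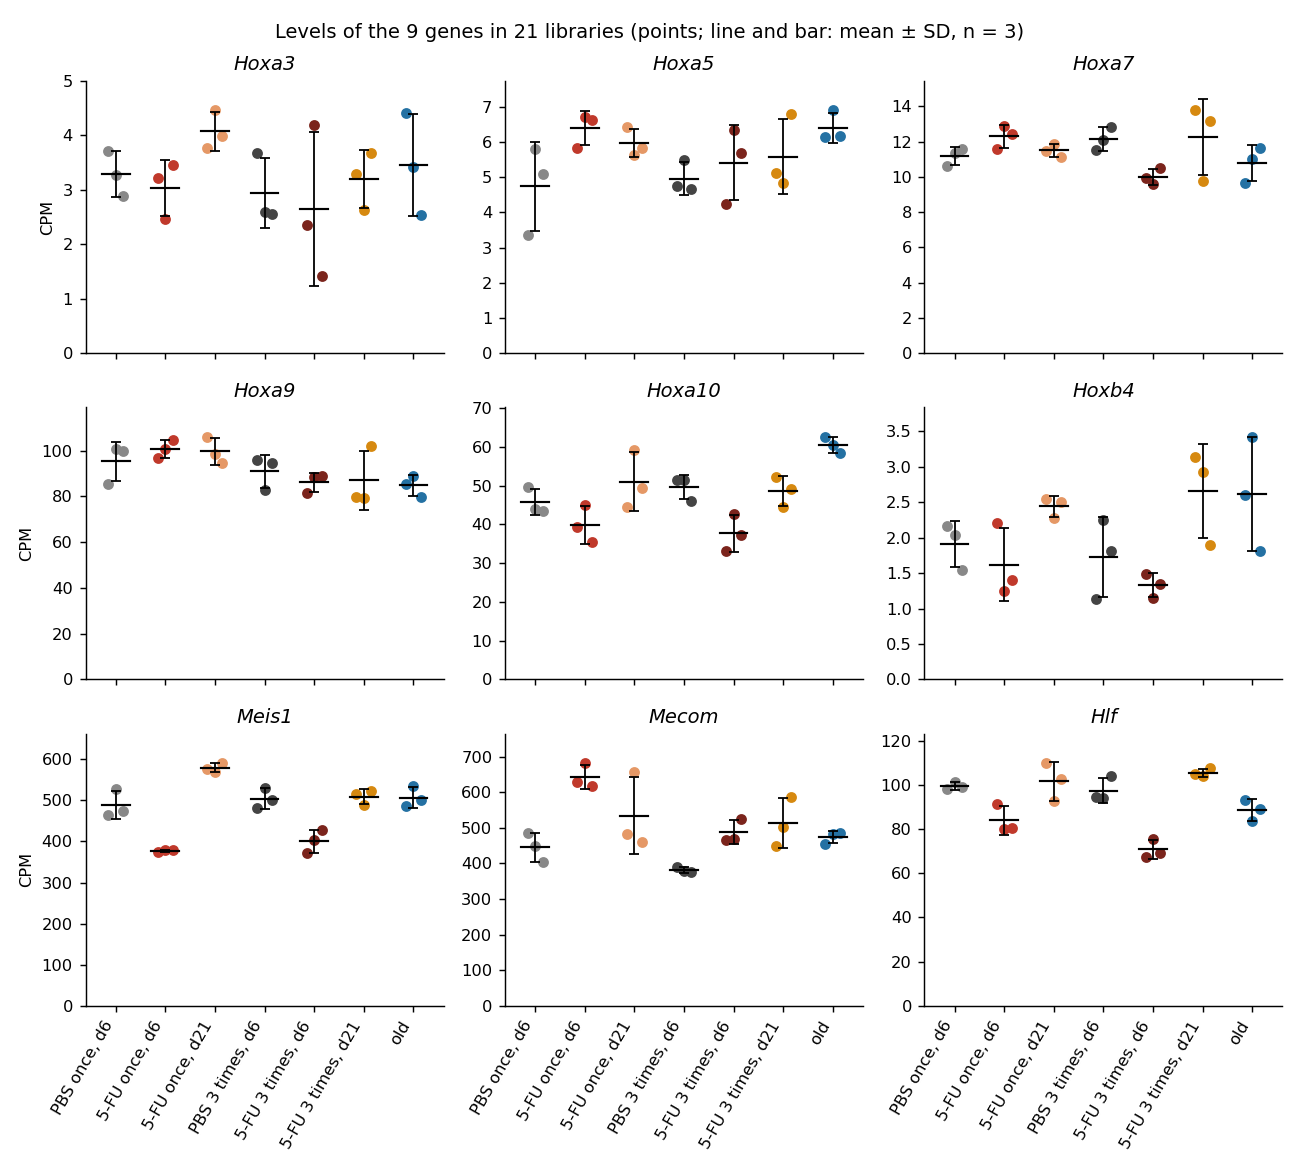
CPM (y axis, from 0) of each of the 9 genes in each of 21 libraries (points) by group (x axis), with the mean and SD of 3 libraries as a line and a bar. Meis1 and Hlf are lowest in the 5-FU day 6 groups, Mecom is highest in 5-FU once at day 6, and Hoxa9 is nearly level across groups.

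To see how a wave of HSC proliferation is reflected in these factors, 5-FU once at day 6 was compared with PBS once. Meis1 fell and Mecom rose, and the other 7 members did not pass the test. The 2 of 9 members called stand beside 22.2% of the 12759 genes tested, so that the share of members is that of genes in general. The groups did not overlap for 5 of 9 members and for 43.6% of genes. The median log2 fold change of the members was -0.10 and that of all genes -0.001.

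Meis1, the TALE cofactor of Hox proteins, was at 464, 528 and 475 CPM in the libraries of PBS once and at 375, 378 and 378 CPM in those of 5-FU once. All 5-FU libraries lay below all PBS libraries, and they were nearly equal to each other. The log2 fold change was -0.36 (SE 0.064, adjusted p = 0.00958). The fitted level fell by 22.2%. Mecom, the PRDM zinc finger factor, was at 485, 449 and 403 CPM after PBS and at 630, 682 and 617 CPM after 5-FU. All 5-FU libraries lay above all PBS libraries, and the log2 fold change was 0.54 (SE 0.082, adjusted p = 0.00572), or 1.46-fold. Hlf, the PAR bZIP factor, was at 98.2, 102 and 99.0 CPM after PBS and at 91.2, 80.0 and 80.4 CPM after 5-FU. The groups did not overlap, but the log2 fold change of -0.24 (SE 0.075) missed the threshold (adjusted p = 0.0613). Without replicate 1 of 5-FU the adjusted p was 0.0439, and it ranged from 0.00869 to 0.180 over 13 alternatives.

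The Hox members did not pass the test after 5-FU once. Hoxa9 was at 85.5, 101 and 99.9 CPM after PBS and at 96.8, 101 and 105 CPM after 5-FU, which overlap. Its log2 fold change of 0.09 had a 95% interval from -0.11 to 0.29. Hoxa10, its neighbour in the cluster, had -0.18 (interval -0.44 to 0.07). Hoxa7, a middle gene of the cluster, was at 10.6, 11.4 and 11.6 CPM after PBS and at 11.6, 12.9 and 12.4 CPM after 5-FU, without overlap, with a log2 fold change of 0.15 (SE 0.10, adjusted p = 0.336). Hoxa5 had the largest estimate among them at 0.45 (SE 0.24, adjusted p = 0.221), with groups that did not overlap. The low genes Hoxa3 and Hoxb4 had intervals from -0.76 to 0.56 and from -1.21 to 0.76, so that changes within these intervals are not excluded.

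The same comparison after 3 administrations also had lower Meis1 and higher Mecom, and Hlf and Hoxa10 were lower too. Of the 9 members, 4 were called, beside 18.1% of 12729 genes, and the groups were separate for 5 of 9 members and for 39.9% of genes. The median log2 fold change of the members was -0.28 and that of all genes -0.012. This comparison shares no library with the previous one.

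Hlf was at 94.4, 94.1 and 104 CPM in PBS 3 times and at 67.5, 75.5 and 69.3 CPM in 5-FU 3 times at day 6. The groups were far apart relative to their spread, and the log2 fold change was -0.47 (SE 0.085, adjusted p = 0.0133). The fitted level fell by 27.6%. Meis1 was at 481, 531 and 500 CPM after PBS and at 371, 402 and 428 CPM after 5-FU, without overlap, with a log2 fold change of -0.34 (SE 0.078, adjusted p = 0.0265). Mecom was at 390, 379 and 376 CPM after PBS and at 466, 470 and 526 CPM after 5-FU, without overlap, with a log2 fold change of 0.35 (SE 0.071, adjusted p = 0.0186). Hoxa10, a posterior HoxA factor, was at 51.5, 51.3 and 45.9 CPM after PBS and at 33.2, 42.8 and 37.2 CPM after 5-FU. These did not overlap, and the log2 fold change was -0.40 (SE 0.11, adjusted p = 0.0460).

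Apart from that of Hlf, these calls after 3 administrations were lost in some of the 13 alternatives, while their directions were kept in all of them. Hoxa10 missed the threshold when every gene with at least 1 count was tested (adjusted p = 0.0514) and also without replicate 1 (adjusted p = 0.121) or 3 (0.130) of 5-FU and without replicate 1 (0.122), 2 (0.118) or 3 (0.0698) of PBS, within a range of 0.00991 to 0.130 over 13 alternatives. Meis1 missed it without replicate 1 (0.0797) or 2 (0.0721) of 5-FU and without replicate 2 (0.0840) or 3 (0.0698) of PBS, within a range of 0.000267 to 0.0840. Mecom missed it without replicate 1 (0.0505), 2 (0.0600) or 3 (0.0579) of PBS, within a range of 4.83e-05 to 0.0600. For Hlf the range was 2.77e-07 to 0.0483.

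Of the other Hox members after 3 administrations, Hoxa7 was at 11.5, 12.1 and 12.8 CPM after PBS and at 9.93, 9.58 and 10.5 CPM after 5-FU. The groups did not overlap, and the log2 fold change of -0.28 (SE 0.11) did not pass (adjusted p = 0.117). Hoxa9 had -0.08 with an interval from -0.30 to 0.13. Hoxa5 had 0.12, Hoxa3 -0.16 and Hoxb4 -0.38, each with overlapping groups.

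Markers of HSCs and of other cells moved with these results. The summed level of the HSC markers was 1587 to 1799 CPM in PBS once and 1361 to 1554 in 5-FU once at day 6, and 1701 to 1752 CPM in PBS 3 times and 1502 to 1575 in 5-FU 3 times at day 6. Kit, whose protein is part of the gate, had means of 1081 and 592 CPM after 1 administration and of 1015 and 750 after 3. It was the largest part of these sums. Ly6a, which encodes Sca-1 of the gate, went the other way, with means of 268.3 and 537.5 CPM after 1 and of 405.5 and 477.2 after 3. Of the 7 markers, 2 rose and 1 fell after 1 administration, with a median log2 fold change of 0.262. The lower sum there is thus no fall of the HSC markers as a list. After 3 administrations none rose and 2 fell, with a median of -0.026. Of all genes 22.2% and 18.1% were called after 1 and 3, which also stands beside the counts of the lists below. The summed mature myeloid markers were at 79.1 to 112 CPM in PBS once and 43.9 to 56.4 in 5-FU once at day 6, and at 69.8 to 95.2 and 38.7 to 56.4 after 3. Of 5 mature myeloid markers tested each time, 3 were called lower after 1 administration and 1 after 3, and none higher. The summed level of 6 progenitor markers had a mean of 362 CPM in PBS once and 231 in 5-FU once at day 6, and of 446 and 285 after 3. Most of it was Cd34, with means of 336 and 207 CPM after 1 administration and of 418 and 257 after 3. Of the progenitor markers 1 rose and 2 fell in each comparison, among 5 tested after 1 and 4 after 3. The mean of Cd48, whose protein the gate excludes, was higher after 5-FU, at 4.31 and 7.55 CPM after 1 and 3.05 and 11.4 after 3. That of 5 megakaryocyte markers was 163 to 199 and 105 to 111 CPM after 1 administration, with 4 of 5 called lower, and 174 to 183 and 147 to 156 CPM after 3, with 2 of 5 called lower. None of these summed levels overlapped between PBS and 5-FU. The summed macrophage markers were at 0.593 to 1.57 CPM in PBS 3 times and 2.37 to 8.27 in 5-FU 3 times at day 6, and overlapped after 1 administration. The part of the gate and of these markers in the changes of Meis1, Mecom, Hlf and Hoxa10 was not tested.

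Whether 5-FU acted differently on the members after 3 administrations than after 1 was tested as an interaction over the 12 libraries of both day 6 comparisons. By the quasi-likelihood test of edgeR 0 of 9 members passed, beside 0.650% of 13227 genes. DESeq2 called 715 genes and 0 members. An unadjusted p under 0.05 by edgeR was found for 1954 of all genes and for 1 member. That member was Hoxa7, for which the effect after 3 minus that after 1 was -0.42 (SE 0.13, adjusted p = 0.148). For Hlf the difference was -0.22 (interval -0.45 to 0.02), for Mecom -0.18 (interval -0.42 to 0.05) and for Meis1 0.04 (interval -0.18 to 0.25). A stronger fall of Hlf or a weaker rise of Mecom after 3 administrations was thus not shown.

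**Figure D3:**
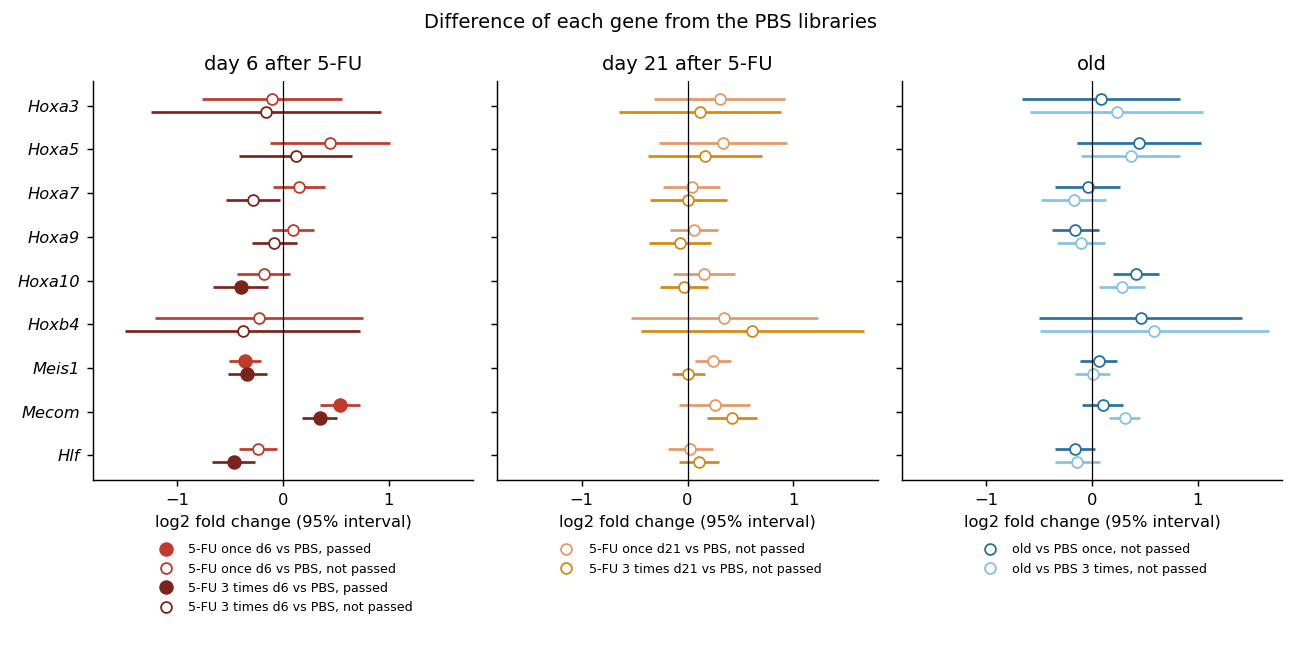
Log2 fold change (x axis, points) with its 95% interval (lines) of each of the 9 genes (y axis) relative to PBS, at day 6 and day 21 after 5-FU and in old HSCs, with filled points for those that passed an adjusted p of 0.05. Passed points are found at day 6 for Meis1, Mecom, Hlf and Hoxa10, and none at day 21 or in old.

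The level of Meis1 relative to Mecom can be read within a library, where no scaling between libraries is needed. Such a ratio cannot tell whether 1 gene or both changed. This ratio was chosen after their values were seen, so it is no separate support for their calls. In PBS once there were 0.957, 1.18 and 1.18 Meis1 counts per Mecom count, and in 5-FU once at day 6 there were 0.596, 0.554 and 0.613. In PBS 3 times there were 1.23, 1.40 and 1.33, and in 5-FU 3 times at day 6 there were 0.797, 0.856 and 0.813. The groups did not overlap in either comparison, and the two-sided exact permutation test of 3 libraries against 3 cannot go below p = 0.1. At day 21 the ratio was 0.867 to 1.29 after 1 administration and 0.891 to 1.15 after 3, and in old it was 1.03 to 1.11. The ratio in both day 6 groups after 5-FU lay below that of every other library.

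**Figure D4:**
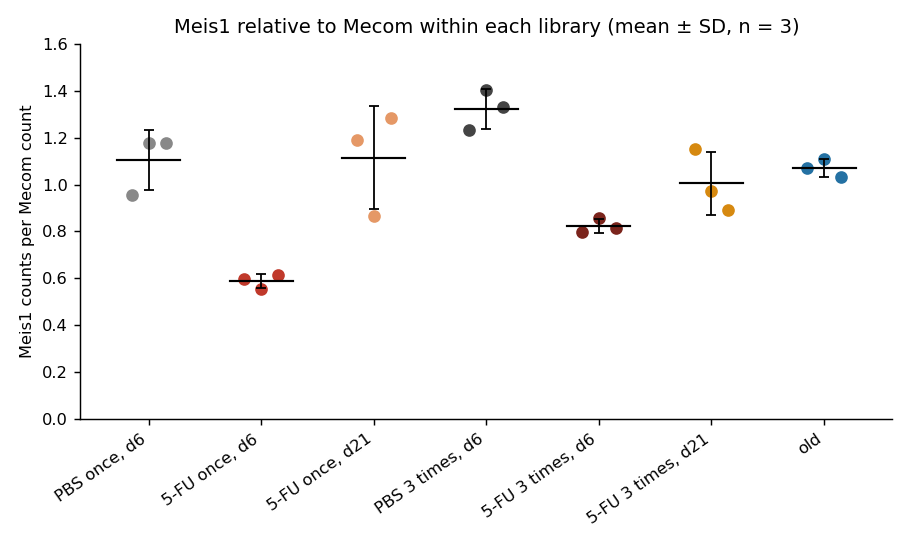
Meis1 counts per Mecom count in each of 21 libraries (points, y axis from 0) by group (x axis), with the mean and SD of 3 libraries. The 5-FU day 6 groups lie at 0.554 to 0.613 and 0.797 to 0.856, and the other 15 libraries lie at 0.867 and above.

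At day 21 no member passed the test against PBS. After 1 administration the quasi-likelihood test of edgeR called 0 of 9 members, beside 0.221% of 12647 genes. DESeq2 called 725 genes and 1 member. An unadjusted p under 0.05 by edgeR was found for 1685 of all genes and for 1 member. That member was Meis1, at 576, 570 and 591 CPM, above all libraries of PBS once, with a log2 fold change of 0.24 (SE 0.071, adjusted p = 0.214). Its adjusted p ranged from 0.0142, by DESeq2, to 0.476 over 13 alternatives, and DESeq2 was the only one of them under the threshold. All 9 estimates were above 0, from 0.03 for Hlf to 0.35 for Hoxb4, with a median of 0.241 beside -0.013 for all genes. Those of Hoxa7, Hoxa9 and Hlf turned below 0 in at least 1 of 13 alternatives. The estimates come from the same libraries, and a shared direction was not tested. Groups were separate for 3 of 9 members (Meis1, Hoxa3 and Hoxb4) and for 21.1% of genes.

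After 3 administrations edgeR again called 0 of 9 members at day 21, beside 0.0475% of 12632 genes. DESeq2 called 592 genes and 1 member. An unadjusted p under 0.05 by edgeR was found for 1725 of all genes and for 1 member. Here it was Mecom, at 448, 503 and 587 CPM against 390, 379 and 376 CPM in PBS 3 times, without overlap. Its log2 fold change was 0.42 (SE 0.10, adjusted p = 0.168), and over 13 alternatives its adjusted p ranged from 0.00792, by DESeq2, to 0.342. Meis1 had 0.01 with an interval from -0.15 to 0.17, and Hlf, at 105, 104 and 107 CPM, had 0.11 with an interval from -0.08 to 0.29. Groups were separate for 2 of 9 members and for 21.4% of genes.

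Day 21 was also compared directly with day 6 after 5-FU, which shares the 5-FU day 6 libraries with the comparisons above. After 1 administration 1 of 9 members was called, beside 26.0% of 12589 genes, and 4 of 9 were separate, beside 46.1% of genes. This was Meis1, which was higher at day 21 by 0.60 on the log2 scale (SE 0.059, adjusted p = 0.00131), or 1.52-fold. By edgeR Hlf did not pass, with a log2 fold change of 0.26 and an adjusted p of 0.0911 (0.0222 to 0.228 over 13 alternatives, with DESeq2 and the single fit of all 21 libraries under the threshold). Hoxa10 did not pass either, with 0.34 and an adjusted p of 0.110 (0.0385 to 0.281, with the single fit under it). Mecom, with a high library of 657 CPM beside 484 and 460 CPM at day 21, had -0.28 (adjusted p = 0.162). Without that library, replicate 2, the log2 fold change was -0.45 with an adjusted p of 0.0134, within a range of 0.0134 to 0.376 over 13 alternatives.

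After 3 administrations 2 of 9 members were called between day 21 and day 6, beside 19.5% of 12553 genes, and 4 of 9 were separate, beside 41.1%. Hlf was higher at day 21 by 0.57 (SE 0.081, adjusted p = 0.00458), or 1.48-fold, and Meis1 by 0.34 (SE 0.077, adjusted p = 0.0241). Meis1 missed the threshold without replicate 1 (adjusted p = 0.0778) or 2 (0.0672) of day 6 and without replicate 1 (0.0715) or 3 (0.0639) of day 21, within a range of 0.000133 to 0.0778 over 13 alternatives. Mecom had 0.06 with an interval from -0.19 to 0.32, so that its level at day 21 was not distinguishable from that at day 6. Hoxb4 had the largest estimate at 0.99 (SE 0.42, adjusted p = 0.147), with 1.49, 1.15 and 1.35 CPM at day 6 and 3.14, 2.93 and 1.90 CPM at day 21, and Hoxa10 had 0.36 (adjusted p = 0.0742). Over 13 alternatives the adjusted p of Hoxb4 ranged from 0.0436, by DESeq2, to 0.323 and that of Hoxa10 from 0.0345 to 0.196, with DESeq2, library size alone and the single fit under the threshold. All 9 estimates were above 0, with a median of 0.281 beside 0.008 for all genes. Those of Hoxa3, Hoxa5, Hoxa9 and Mecom turned below 0 in at least 1 of 13 alternatives, and a shared direction was not tested.

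Day 21 after 3 administrations was compared with day 21 after 1. The test of edgeR called 0 of 9 members, beside 0.00802% of 12474 genes. DESeq2 called 161 genes and 0 members. An unadjusted p under 0.05 by edgeR was found for 738 of all genes and for 1 member. That member was Meis1, at 516, 489 and 523 CPM after 3 and 576, 570 and 591 CPM after 1, with a log2 fold change of -0.18 (SE 0.067, adjusted p = 0.743). The groups did not overlap for Meis1, as for 12.5% of genes.

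Old HSCs were set beside both PBS groups, to see whether age moves the same factors. Against PBS once edgeR called 0 of 9 members, beside 1.88% of 12855 genes. DESeq2 called 824 genes and 1 member. An unadjusted p under 0.05 by edgeR was found for 1839 of all genes and for 1 member. That member was Hoxa10, at 62.6, 60.4 and 58.4 CPM in old and 49.6, 44.0 and 43.6 CPM in PBS once. No library overlapped, and the log2 fold change was 0.41 (SE 0.093, adjusted p = 0.0775), with adjusted p-values from 0.00182 to 0.258 over 13 alternatives. Against PBS 3 times edgeR called 0 of 9, beside 0.996% of 12847 genes. DESeq2 called 569 genes and 1 member. An unadjusted p under 0.05 by edgeR was found for 1434 of all genes and for 2 members. These were Mecom, with 0.31 (SE 0.063, adjusted p = 0.0880, range 4.09e-06 to 0.232 over the alternatives), and Hoxa10, with 0.28 (SE 0.092, adjusted p = 0.278). Old libraries were collected separately, so that collection and age cannot be told apart.

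Meis1 in old, at 486, 535 and 500 CPM, overlapped both PBS groups, with log2 fold changes of 0.06 (interval -0.11 to 0.23) and 0.00 (interval -0.16 to 0.17) against PBS once and 3 times. Hlf in old, at 93.3, 83.5 and 89.0 CPM, lay below all 6 PBS libraries, with -0.16 (adjusted p = 0.445) and -0.14 (adjusted p = 0.687). Separate groups were found for 3 of 9 members against PBS once and for 4 of 9 against PBS 3 times, beside 20.9% and 16.9% of genes. The 2 PBS groups were also compared with each other, and edgeR called 0 of 9 members, beside 0.0156% of 12806 genes. DESeq2 called 547 genes and 0 members. An unadjusted p under 0.05 by edgeR was found for 1633 of all genes and for 1 member. That member was Mecom, with -0.22 after PBS 3 times (SE 0.078, adjusted p = 0.324).

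Other TALE homeodomain genes, of which the Meis and Pbx genes are the partners of Hox proteins, also moved at day 6. Of 8 TALE genes tested, none rose and 3 fell after 5-FU once at day 6, namely Tgif1, Pbx4 and Meis3. After 3 administrations 1 rose (Pknox1) and 2 fell (Tgif1 and Meis3). Of all genes 22.2% and 18.1% were called. The median log2 fold changes of the 8 TALE genes were -0.10 and -0.22. Tgif1, a TALE repressor and the most abundant of them, was at 157 ± 32.8 CPM (SD, n = 3) in PBS once and 106 ± 13.1 in 5-FU once at day 6, with overlapping libraries. After 3 administrations it was at 188 ± 19.9 and 131 ± 19.1 CPM, without overlap. It fell by 0.55 and by 0.53 on the log2 scale (adjusted p = 0.0483 and 0.0341). Meis3, a relative of Meis1 at a low level, was at 16.8 ± 0.702 CPM in PBS once and 5.48 ± 0.286 in 5-FU once at day 6, a log2 fold change of -1.61 (SE 0.11, adjusted p = 0.000597). After 3 administrations it was at 14.7 ± 2.87 and 1.29 ± 0.312 CPM, a log2 fold change of -3.51 (SE 0.25, adjusted p = 0.00126). At day 21 it was at 1.67 to 4.63 CPM after 1 administration and at 0 to 1.82 CPM after 3, below all PBS libraries, but did not pass the test against PBS there (adjusted p = 0.0584 and 0.168). The effect at day 6 after 3 minus that after 1 was -1.90 (SE 0.26, adjusted p = 0.0149 by edgeR), and Meis3 was the only one of the 8 TALE genes called in that interaction. Meis3, Pbx4 and Pknox1 are named because the count is small, after their values were seen.

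Of 32 Hox genes examined that are no member, 8 passed the filter on low counts in each day 6 comparison. The test of edgeR called 0 of them after 1 administration and 0 after 3, beside 22.2% and 18.1% of all genes. At an unadjusted p under 0.05 by edgeR were 4798 and 4189 genes, with 1 of these Hox genes each time. DESeq2 called 0 and 1 of these Hox genes. Hoxb2, the most abundant of them at a mean of 8.38 CPM, was at 5.91 ± 0.879 CPM in PBS once and 8.31 ± 0.258 in 5-FU once at day 6 (log2 fold change 0.50, adjusted p = 0.0665). After 3 administrations it was at 6.60 ± 0.460 and 9.23 ± 0.556 CPM (0.48, adjusted p = 0.0540). Between day 6 and day 21 after 5-FU, Hoxb5 rose after 1 administration (0.92, adjusted p = 0.0287), and Hoxb5 (0.67, adjusted p = 0.0444) and Hoxb3 (1.13, adjusted p = 0.0274) rose after 3. These 2 were chosen after their values were seen.

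Among the relatives of Mecom and Hlf, Prdm16, a PRDM factor that HSCs need, fell after 1 administration by 0.27 on the log2 scale (adjusted p = 0.0347), in the opposite direction to Mecom, from 165 ± 1.42 to 136 ± 9.62 CPM. After 3 administrations it was at 171 ± 46.2 and 126 ± 45.3 CPM and did not pass (adjusted p = 0.322). Of the 4 relatives tested, none rose and 2 fell after 1 administration (Prdm16 and Dbp), and none rose and 1 fell after 3 (Dbp), beside 22.2% and 18.1% of all genes called. Dbp, a PAR bZIP factor of the circadian clock and a relative of Hlf, fell by 0.56 and by 0.92 (adjusted p = 0.0291 and 0.0157), and is named after its values were seen.

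Of 18 chromatin regulators of Hox genes that were tested, 1 rose and 3 fell after 1 administration and 4 rose and 2 fell after 3, beside 22.2% and 18.1% of all genes called, so that the share after 1 is that of genes in general. Psip1, which encodes LEDGF, a tether of MLL complexes to chromatin, rose by 0.46 on the log2 scale (adjusted p = 0.00499) from 369 ± 11.1 to 505 ± 35.1 CPM after 1 administration. After 3 it rose by 0.50 (adjusted p = 0.00785), from 354 ± 25.5 to 503 ± 20.5 CPM. Mllt3, which encodes AF9, an elongation cofactor tied to HSC maintenance, had -0.15 after 1 (adjusted p = 0.250) and fell by 0.78 after 3 (adjusted p = 0.00987). Mllt10, which encodes AF10, a cofactor of the H3K79 methyltransferase, fell by 0.39 after 1 (adjusted p = 0.0327) and had -0.25 after 3 (adjusted p = 0.153). Ezh2, the Polycomb methyltransferase, had 0.35 after 1 (adjusted p = 0.0717) and rose by 0.69 after 3 (adjusted p = 0.00530). The interaction test of edgeR between 1 and 3 administrations called 0 of the 18, with 3 at an unadjusted p under 0.05 and 1 called by DESeq2. Of all 13227 genes, edgeR called 86, 1954 had an unadjusted p under 0.05 and DESeq2 called 715.

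Of the genes described as targets or downstream partners of Hox and Meis proteins, more fell than rose at day 6, with 1 up and 6 down of 10 after 1 administration and none up and 4 down after 3. Of all genes 22.2% and 18.1% were called, with 1470 up and 1357 down and with 1253 up and 1057 down. The median log2 fold changes of the targets were -0.43 and -0.21. Flt3, a cytokine receptor of multipotent progenitors whose protein the sorting gate excludes, fell by 1.97 after 1 (adjusted p = 0.00550), from 23.3 ± 1.16 to 5.90 ± 2.56 CPM, and by 1.18 after 3 (adjusted p = 0.0120). It was also lower in old, at 11.4 ± 0.976 CPM, with log2 fold changes of -1.02 and -1.22 against PBS once and 3 times (adjusted p = 0.00548 and 0.00799). Myb, a transcription factor of progenitor expansion, fell by 0.48 after 1 (adjusted p = 0.00366) and had -0.19 after 3 (adjusted p = 0.204). Sox4 fell by 0.43 after 1 (adjusted p = 0.0110) and had -0.31 after 3 (adjusted p = 0.0633). Lmo2, an adaptor of the stem cell transcription complex and the most abundant of the list at 1767 ± 55.7 CPM in PBS once, fell by 0.20 and by 0.24 (adjusted p = 0.0254 and 0.0315). Trib2, a pseudokinase and Meis1 target in leukemia, fell by 1.74 after 3 (adjusted p = 0.0383) and was higher in old against both PBS groups, by 1.22 and 1.06 (adjusted p = 0.0106 and 0.0282). After 1 it was at 8.48 ± 1.16 CPM in PBS once and 4.46 ± 2.37 in 5-FU once at day 6, and did not pass. Its level at day 21 was 1.73 to 5.62 CPM after 1 administration and 1.07 to 3.22 after 3. These lay below all PBS libraries but did not pass the test against PBS. At day 21 edgeR called 0 genes of these 5 lists against PBS after either schedule, with between 1 and 6 genes of a list at an unadjusted p under 0.05 and between 0 and 3 called by DESeq2. Of all genes, 1685 after 1 administration and 1725 after 3 had an unadjusted p under 0.05 by edgeR, and DESeq2 called 725 and 592.

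**Figure D5:**
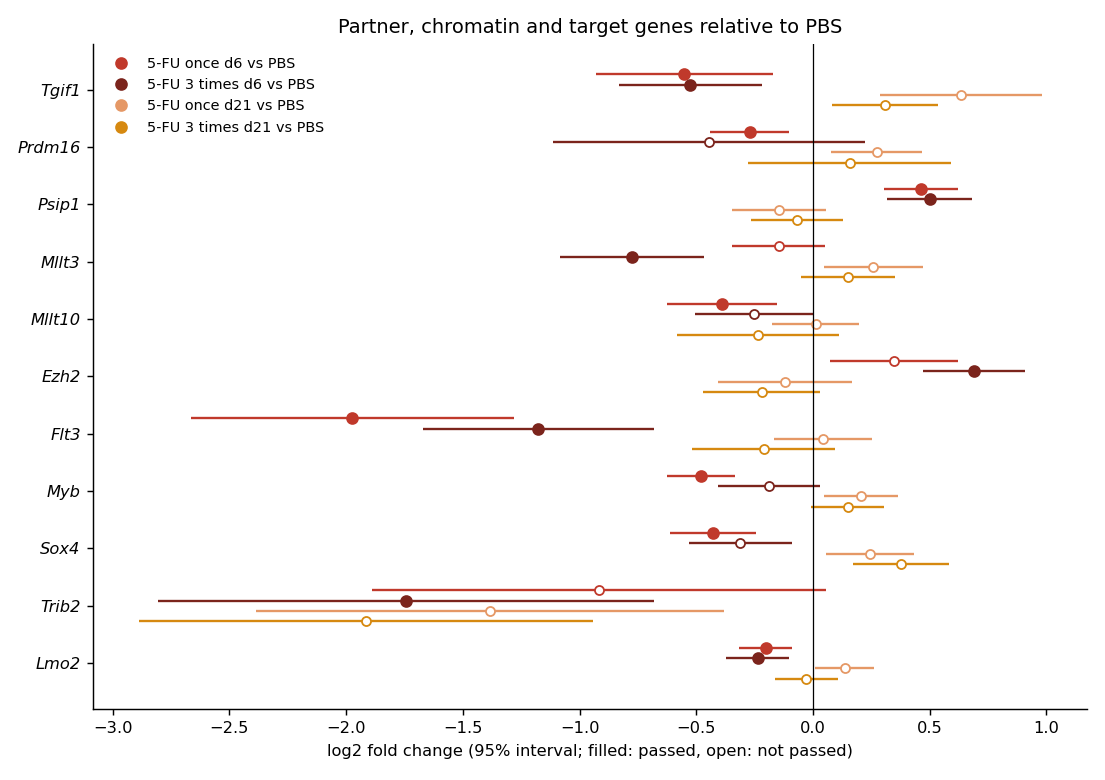
Log2 fold change (x axis, points) with its 95% interval (lines) relative to PBS of 11 genes named from the lists of TALE genes, relatives, chromatin regulators and targets (y axis), at day 6 and day 21 after 5-FU once or 3 times, with filled points for those that passed. Flt3 and Trib2 lie furthest below 0 at day 6, Psip1 lies above 0, and all points of day 21 are open.

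Counting may mix some members with genes that overlap them, since the use of strand in counting is not stated in the sources used here. In GENCODE vM21, 20.4% of the exonic bases of Hoxa7 are shared with the antisense transcript Hoxaas3. Of those of Hoxa3, 8.36% are shared with Hoxaas2 on the opposite strand and 8.02% with a gene model on the same strand. Further genes on the opposite strand share 4.855% to 7.266% each. Meis1 shares 8.51% with an antisense transcript and 9.77% with a provisional model on the same strand, and Mecom shares 0.652% with Mecomos. The values of Hoxa3, Hoxa7 and Meis1 are less certain for this reason, and the extent of any mixing was not measured.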

How the data were processed

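The authors aligned single-end reads of 75 bases from SMART-Seq v4 and Nextera XT libraries to mm10 with TopHat 2.0.13 and iGenomes annotation, quantified with Cuffdiff of Cufflinks 2.2.1, and deposited whole-number counts per gene symbol without normalization. The program that made these counts, and its treatment of strand and of reads with several alignments, are not stated in the sources used here, and no molecular identifiers are mentioned, so that floors cover counting error only. All 21 libraries were used, from 3 independent experiments per group per the study's methods, with groups from the labels. Replicates differed by 16.8 to 37.2 times what read sampling alone gives (21 pairs), so none is the same library sequenced again. Whether libraries were prepared from the same cells cannot be told from this.

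In R 4.3.3, each comparison of 2 groups was fitted on its own libraries with edgeR 4.0.16 (filterByExpr, TMM, quasi-likelihood F test, Benjamini-Hochberg adjustment over all genes kept, threshold 0.05). The SE of a log2 fold change is its size over the root of F. CPM use TMM factors over 21 libraries. The named list genes passed the test in at least 3 of 10 comparisons of 2 groups or had the highest mean CPM of their list. The members and lists were chosen with earlier results of these data known, and some genes of the lists are not reported here. Alternatives were RLE factors, library size alone, DESeq2 1.42.0, filters at 1 and 10 counts, a replicate block, a single fit of 21 libraries and fits without each library. The fits were tested on simulated data. Positions come from GENCODE vM21 and promoter sequences from RefSeq (GRCm38.p6), in which all 9 symbols matched.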

Additional observations from a re-analysis of the deposited data

Results flagged for a closer look

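Hoxa7 stood out at day 6 because its libraries were separate from PBS in opposite directions after 1 and after 3 administrations, although it passed the test in neither comparison. All 3 libraries of 5-FU once lay above all 3 of PBS once, and all 3 libraries of 5-FU 3 times lay below all 3 of PBS 3 times. Groups were separate for 43.6% and 39.9% of all genes in these 2 comparisons, and the share separate in opposite directions was not counted. Hoxa7 also shares 20.4% of its exonic bases with the antisense transcript Hoxaas3. The effect after 3 minus that after 1 was -0.42 on the log2 scale (SE 0.13), and adjusted over all 13227 genes by edgeR the test of this difference did not pass (adjusted p = 0.148). The groups hold 3 libraries each, too few for a test of single outlying libraries. Meis3, a TALE partner and no member, also stood out, since its effect at day 6 differed between schedules by the interaction test of edgeR, by -1.895 on the log2 scale (SE 0.26, adjusted p = 0.0149), with all 5-FU libraries below all PBS libraries in both comparisons.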

How the results depend on the processing

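Over 13 alternatives for each comparison of 2 groups (19 for the interaction), the calls of Meis1 and Mecom at day 6 after 5-FU once, of Hlf at day 6 after 3 administrations, of Meis1 between day 21 and day 6 after 1 and of Hlf between day 21 and day 6 after 3 kept their direction and their side of the threshold. Of the 1341 values of single members under an alternative, 8 changed sign under another method and 44 on leaving out a library, in results whose main log2 fold change was at most 0.264 in size and did not pass. With 3 libraries a group and 34 to 155 counts a library for Hoxa3 and Hoxb4, changes of these 2 genes within their intervals are not excluded. The cause of each shift below was not tested.

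The replicate number served as a block in a fit of its own. Same-numbered libraries did not deviate together, with mean correlations of -0.024 to 0.049 per comparison and none above 0.0747. With the replicate block, 5-FU 3 times at day 6 had 1509 genes and 2 members called (2310 and 4 without it), with Hoxa10 at an adjusted p of 0.0721 and Mecom at 0.0530. The block gave 3 genes for 5-FU once at day 21, 0 for 5-FU 3 times at day 21, 0 for 3 against 1 administration at day 21, 104 and 30 for old against PBS once and 3 times, 0 between the PBS groups and 55 for the interaction. It turned Hoxa7 to -0.006 at day 21 after 3 against PBS and Hoxa9 to -0.005 between day 21 and day 6 after 3.

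DESeq2 called 725 genes and 1 member (Meis1) for 5-FU once at day 21 against PBS, 592 and 1 (Mecom) after 3, 2 members between day 21 and day 6 after 1 and 4 after 3, 161 genes for 3 against 1 administration at day 21, 824 genes and 1 member (Hoxa10) for old against PBS once, 569 and 1 (Mecom) against PBS 3 times, 547 genes between the PBS groups and 715 for the interaction. The single fit of 21 libraries called 257 and 185 genes at day 21 against PBS after 1 and 3, 3 members between day 21 and day 6 after 1, 16 genes for 3 against 1 at day 21 and 19 between the PBS groups, and put Hoxa9 at -0.003 between day 21 and day 6 after 3.

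Library size alone called 83 and 15 genes at day 21 against PBS after 1 and 3. It put Hoxa7 at -0.029, Hoxa9 at -0.004 and Hlf at -0.037 at day 21 after 1, Meis1 at -0.002 in old against PBS 3 times and Meis1 at -0.029 in the interaction. It moved the median log2 fold change of all genes to -0.111 in 5-FU 3 times at day 6 and to 0.117 between day 21 and day 6 after 3, where calls split into 807 up and 1462 down (1253 and 1057 with TMM) and 1701 up and 977 down (1089 and 1361). After 5-FU once at day 6 they split into 1127 and 1623 (1470 and 1357). RLE factors called 3 genes, and a minimum of 10 counts 23, at day 21 after 3. Counting every gene with at least 1 count put Hoxa10 at day 6 after 3 at an adjusted p of 0.0514.

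Leaving out 1 library gave 1563 to 1947 genes and 2 to 3 members for 5-FU once at day 6, 1231 to 1582 and 1 to 3 for 5-FU 3 times, 1 to 32 genes at day 21 after 1, 1 to 4 after 3, 1736 to 2978 genes and 1 to 2 members between day 21 and day 6 after 1, 1351 to 1744 and 1 to 2 after 3, 0 genes in every fit for 3 against 1 at day 21, 111 to 150 and 20 to 76 for old against PBS once and 3 times, 0 to 1 between the PBS groups and 38 to 170 for the interaction. These fits, with 1 group of 2, crossed 0 for the log2 fold changes that follow. At day 6 Hoxa3 ran from -0.205 to 0.031 after 1 and from -0.648 to 0.15 after 3, and Hoxa5 from -0.001 to 0.273 after 3. At day 21 against PBS, Hlf ran from -0.032 to 0.095 and Hoxa9 from -0.007 to 0.105 after 1, and Hoxa7 from -0.083 to 0.151, Meis1 from -0.018 to 0.048 and Hoxa10 from -0.087 to 0.031 after 3. Between day 21 and day 6, Hoxa9 ran from -0.077 to 0.016 after 1 and from -0.121 to 0.063 after 3, Hoxa5 from -0.126 to 0.157, Hoxa3 from -0.045 to 0.755 and Mecom from -0.04 to 0.148. For 3 against 1 at day 21, Hoxa10 ran from -0.158 to 0.049, Mecom from -0.163 to 0.119, Hlf from -0.012 to 0.116, Hoxa7 from -0.002 to 0.231 and Hoxb4 from -0.014 to 0.316. In old, Hoxa3 ran from -0.133 to 0.251 and Hoxa7 from -0.113 to 0.029 against PBS once and Meis1 from -0.031 to 0.044 against PBS 3 times. Between the PBS groups, Hoxb4 ran from -0.377 to 0.092, Hoxa5 from -0.126 to 0.248 and Hoxa9 from -0.133 to 0.002. In the interaction, Hoxa3 ran from -0.536 to 0.248, Meis1 from -0.028 to 0.077 and Hoxb4 from -0.389 to 0.147.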
